A study of Mus musculus with 3 samples.

Results

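The smooth muscle contractile genes described here are Myh11, Tagln, Cnn1, Mylk, Smtn, Lmod1, Des, Synm, Cald1 and Srf. They were chosen by gene symbol and are 10 of the 54532 genes in the deposited tables. RNA-seq was done on 3 mouse libraries, 1 for each condition, to compare cardiac fibroblasts of the infarcted heart (MICFs) with induced cardiomyocyte-like cells (iCMs) made from them by added transcription factors. All cells came from adult Myh6-mCherry transgenic mice, whose red reporter marks cells that use the Myh6 promoter, and the fibroblasts were isolated 5 days after myocardial infarction. MICFs were cultured for 4 weeks without virus. GMTMS-iCMs received doxycycline-inducible lentiviruses for Gata4, Mef2c, Tbx5, Myocd and Sall4, and the label of the GMTMM-iCMs names a cocktail with Mesp1 in place of Sall4. Both were kept for 4 weeks in medium with 1 µg/ml doxycycline and sorted for mCherry, so that Myh6 promoter activity chose the cells, and 5 sorted samples were mixed for each library. Adding the factors, infection, doxycycline, choosing cells by mCherry and mixing sorted samples cannot be told apart in comparisons with MICFs. For the MICF library no doxycycline, choice by mCherry or mixing is described.

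The library totals lay between 10624118 and 11904484 counts, and with 1 library per condition no difference has a replicate check and no p-value can be given. Sall4 had 0 counts from MICFs, 1190 from GMTMS-iCMs and 1060 from the GMTMM-labelled library, whereas Mesp1, the factor that names the last cocktail, had 0 counts in every library. It is therefore called the GMTMM-labelled library throughout. FPKM (fragments scaled by gene length and library size) are given as deposited, and folds are ratios of these FPKM, followed by exact (Clopper-Pearson) 95% intervals that cover counting error and nothing else. Differences are on another scale, log2 (FPKM + 1) after quantile normalization over the 3 libraries, and a gene is called higher or lower where this difference is over 1 in size. In bulk RNA of this kind, fewer cells of a type and less RNA per cell cannot be told apart.

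Contraction of smooth muscle rests on a dedicated myosin heavy chain, on thin filaments coated with tropomyosin, caldesmon and calponin, and on myosin light chain kinase, which switches the myosin on when calcium rises. Many of these genes carry CArG boxes, the DNA element that serum response factor (SRF) binds, and myocardin, one of the delivered factors, is a cofactor of SRF that activates them. In the heart such genes are expressed by vascular smooth muscle and, in part, by myofibroblasts of a healing infarct, while cardiomyocytes use their own myosin and troponin. Desmin is shared by all muscle types.

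The genes did not move as one block in GMTMS-iCMs. Myh11, Cnn1 and Synm were higher than in MICFs, Mylk, Smtn and Cald1 were lower, and Tagln, Lmod1, Des and Srf passed the limit in neither direction. The 3 higher genes of 10 stand beside 3.13% of all genes and 12.1% of the 13919 genes with an FPKM of at least 1 in some library, and the 3 lower ones beside 2.72% and 10.7%. The median difference over the 10 genes was 0.31, against -0.04 over the 13919 expressed genes, with 6 genes above 0 and 4 below. With counts scaled to the library total these medians were -0.11 and -0.37. In the GMTMM-labelled library, Myh11, Cnn1 and Des were higher than in MICFs and none was lower. Higher genes were 2.12% of all genes and 8.31% of the expressed ones in that comparison, and lower genes 1.30% and 5.09%. The median was 0.60 against -0.08 over the expressed genes, with 8 of the 10 above 0. Both comparisons share the MICF library, so their resemblance is not independent.

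**Figure D1:**
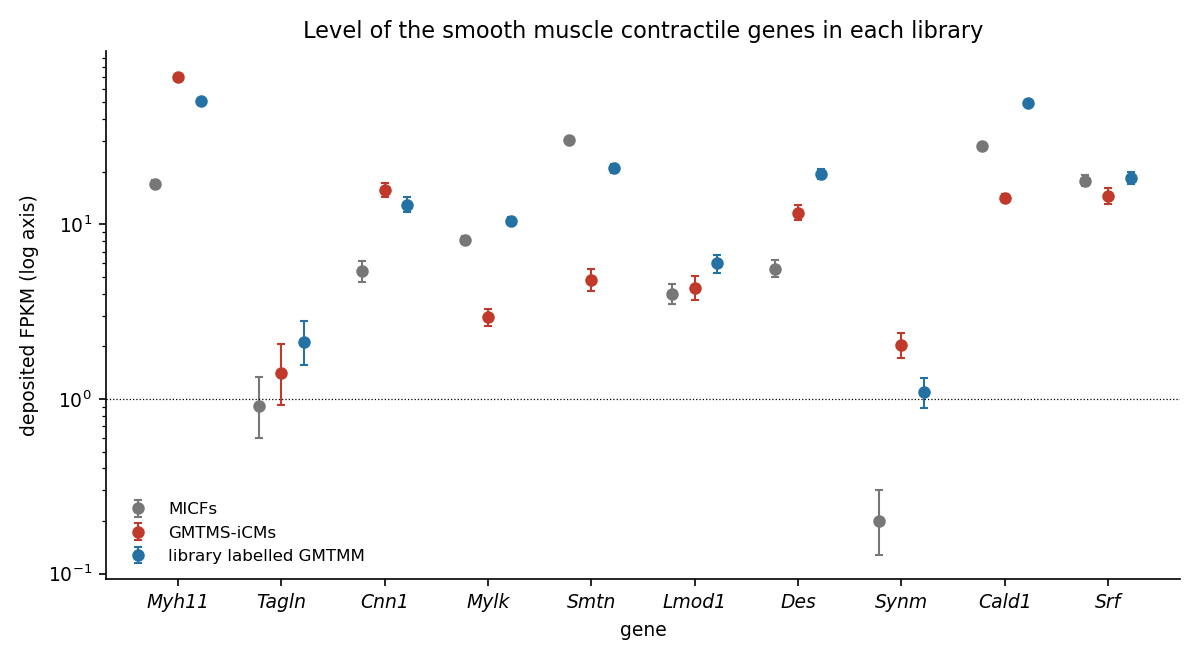
Deposited FPKM (log axis) of the 10 smooth muscle contractile genes, 1 point for each of the 3 libraries. Myh11 goes from 17.1 in MICFs to 70.1 in GMTMS-iCMs and 51.0 in the GMTMM-labelled library, whereas Smtn is at 4.82 in GMTMS-iCMs against 30.4 in MICFs.

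Srf encodes the DNA-binding factor on which the programme depends (ENSMUSG00000015605, chr17:46548329-46556175, minus strand, GRCm38). It had 743 counts from MICFs, 391 from GMTMS-iCMs and 626 from the GMTMM-labelled library, and its FPKM were 17.8, 14.6 and 18.5. Its levels lay within 1.27-fold of each other, with a ratio of MICFs to GMTMS-iCMs of 1.23 (1.08 to 1.39) and of the GMTMM-labelled library to MICFs of 1.04 (0.932 to 1.16). The differences were -0.54 and -0.23. The sign of the latter is not settled, since without quantile normalization it was 0.05. Myocd, the delivered cofactor, moved far more, with 8 counts from MICFs, 574 from GMTMS-iCMs and 342 from the GMTMM-labelled library. These gene counts do not separate the delivered transcript from the cell's own.

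The stretch before the Srf start is printed because, of the genes with a promoter sequence at hand, Srf alone had a CArG box there, searched as CC, 6 bases of A or T, and GG, which reads alike on both strands. RefSeq promoter windows on GRCm38.p6, from 250 bases before to 50 after a start, covered 8 of the 10 genes, all but Myh11 and Tagln. The windows of Mylk (chr16:34784700-34784999) and Smtn (chr11:3539243-3539542) lie inside the gene spans given below, so the outer ends of these spans were not searched. Srf had 2 boxes, at 82 and 62 bases before its start, and 1.81% of 27025 genes had at least 1. Synm had a box with 1 G or C in its core, at 239 bases before its start, a looser pattern present in 11.3% of genes. The capitals mark these boxes in the 250 bases before each start, 5′ to 3′ on the minus strand, at chr17:46556163-46556412 for Srf and chr7:67759743-67759992 for Synm.
Srf: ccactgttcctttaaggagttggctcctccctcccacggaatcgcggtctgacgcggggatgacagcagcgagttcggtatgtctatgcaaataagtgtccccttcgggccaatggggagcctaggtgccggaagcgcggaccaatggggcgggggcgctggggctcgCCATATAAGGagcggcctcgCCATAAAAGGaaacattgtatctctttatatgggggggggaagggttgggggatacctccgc
Synm: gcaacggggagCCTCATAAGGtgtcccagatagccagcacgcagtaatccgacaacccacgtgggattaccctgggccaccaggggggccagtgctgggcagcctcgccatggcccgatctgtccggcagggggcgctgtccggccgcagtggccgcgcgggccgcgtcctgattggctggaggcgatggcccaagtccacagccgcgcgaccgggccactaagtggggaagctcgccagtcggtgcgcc
The other 6 genes held neither pattern, which says only that these letters are not in these windows.

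Myh11 encodes the smooth muscle myosin heavy chain, a defining marker of smooth muscle (ENSMUSG00000018830, chr16:14194535-14291372, minus strand). It had 1867 counts from MICFs, 4947 from GMTMS-iCMs and 4530 from the GMTMM-labelled library, with FPKM of 17.1, 70.1 and 51.0. Both transduced libraries were above MICFs, 4.11-fold (3.89 to 4.33) and 2.99-fold (2.83 to 3.16). By FPKM it was the gene of rank 2505 in MICFs and of rank 760 in GMTMS-iCMs, so it was already expressed in the uninfected culture. It made 14.5% of the summed FPKM of the 10 genes in MICFs, against 49.4% in GMTMS-iCMs and 26.5% in the GMTMM-labelled library.

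The study measured Myh11 by RT-PCR too, and its primers show which transcripts that assay could read, unlike the gene counts, which pool all transcripts.
Myh11 forward: gagcaaactcaggagaggaaac
Myh11 reverse: gtcccgagcgtccatttcttc
Both matched 2 of the 3 protein-coding Myh11 transcripts in the GENCODE M21 annotation, with a product of 112 bases, and neither matched a transcript of another gene. From an RT-PCR time course of GMTMS-infected MICFs at an early stage, the paper describes Myh11 as extremely low throughout. It cites this where it proposes that Myocd appears to switch on cardiac genes and not those of smooth muscle. The sequenced libraries differ from that description, with Myh11 FPKM of 70.1 in GMTMS-iCMs (rank 760) against 17.1 in MICFs. The RT-PCR values were not analysed here, and the cause of this contrast was not tested.

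Mylk encodes the myosin light chain kinase that starts contraction (ENSMUSG00000022836, chr16:34745210-35002420, plus strand). It had 1324 counts from MICFs, 309 from GMTMS-iCMs and 1382 from the GMTMM-labelled library, and FPKM of 8.17, 2.95 and 10.5. GMTMS-iCMs were the low library, below MICFs by 2.77-fold (2.44 to 3.14) and below the GMTMM-labelled library by 3.56-fold (3.14 to 4.04), while the GMTMM-labelled library was 1.29-fold (1.19 to 1.39) above MICFs. The kinase and the myosin heavy chain thus went opposite ways in GMTMS-iCMs, with differences of -1.16 for Mylk and 1.62 for Myh11.

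Among the thin filament proteins, Cnn1 encodes calponin 1, an actin-binding inhibitor of the myosin ATPase (ENSMUSG00000001349, chr9:22099216-22109630, plus strand). Its counts were 213 in MICFs, against 402 in GMTMS-iCMs and 415 in the GMTMM-labelled library, with FPKM of 5.41, 15.8 and 13.0. It was higher in both transduced libraries, 2.92-fold (2.47 to 3.47) and 2.40-fold (2.03 to 2.84), as Myh11 was. The differences were 1.33 and 1.08, and the latter was 0.92 when counts were scaled to the library total.

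Cald1 encodes caldesmon, which blocks the actin filament until calcium rises, and non-muscle cells make shorter forms of it (ENSMUSG00000029761, chr6:34598500-34775473, plus strand). With 4903 counts from MICFs, 1581 from GMTMS-iCMs and 7021 from the GMTMM-labelled library, it had FPKM of 28.3, 14.1 and 49.9. GMTMS-iCMs were 2.00-fold (1.89 to 2.12) below MICFs and the GMTMM-labelled library was 1.76-fold (1.70 to 1.83) above them. The differences were -1.27 and 0.43. Without quantile normalization the former was -0.95 and no longer past the limit. Gene counts do not separate the smooth muscle form from the shorter forms.

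Smtn encodes smoothelin, an actin-binding protein of contractile smooth muscle (ENSMUSG00000020439, chr11:3517523-3540612, minus strand). Its 1919 counts from MICFs, 196 from GMTMS-iCMs and 1076 from the GMTMM-labelled library gave FPKM of 30.4, 4.82 and 21.0. It was the most abundant of the 10 genes in MICFs by FPKM, and its difference in GMTMS-iCMs was -2.67, a ratio of MICFs to GMTMS-iCMs of 6.32 (5.45 to 7.36). The difference of the GMTMM-labelled library from MICFs was -0.88, a ratio of 1.45 (1.34 to 1.56). Of its exon bases, 16.3% overlap Gm11946, a gene on the opposite strand with 16, 2 and 0 counts.

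Lmod1 encodes leiomodin 1, a nucleator of actin filaments in smooth muscle (ENSMUSG00000048096, chr1:135324807-135368065, plus strand). It had 228, 159 and 276 counts for MICFs, GMTMS-iCMs and the GMTMM-labelled library, with FPKM of 4.01, 4.34 and 5.98. The fold of GMTMS-iCMs over MICFs was 1.08 (0.877 to 1.33), within counting error, and that of the GMTMM-labelled library was 1.49 (1.25 to 1.78). The difference in GMTMS-iCMs was 0.18, and -0.34 when counts were scaled to the library total.

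Tagln encodes transgelin, also called SM22, an actin-binding protein that is usually abundant in smooth muscle and in myofibroblasts (ENSMUSG00000032085, chr9:45929619-45936058, minus strand). Here it had 26 counts from MICFs, 26 from GMTMS-iCMs and 49 from the GMTMM-labelled library, and FPKM of 0.909, 1.41 and 2.11. These levels were low in all 3 libraries, while Acta2, the smooth muscle actin that usually accompanies it, had FPKM of 182, 300.5 and 445. Of the 1988 exon bases of Tagln, 67.9% lie in exons of genes on the opposite strand, 62.4% in Gm48529 and 5.43% in Pcsk7. Gm48529 itself had 47, 12 and 22 counts. The strand setting of the counting is not given in the sources used here, and reads that fit 2 genes are often left uncounted, so the part of this overlap in the low counts was not tested. The fold over MICFs was 1.55 (0.864 to 2.78) in GMTMS-iCMs, within counting error, and 2.32 (1.41 to 3.89) in the GMTMM-labelled library. With 26 counts in MICFs and in GMTMS-iCMs, the former fold reflects the library sizes behind the FPKM alone.

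Des and Synm encode desmin and synemin, intermediate filament proteins that tie the contractile apparatus together, and both are also made in cardiac muscle. Des (ENSMUSG00000026208, chr1:75360329-75368579, plus strand) had 302 counts from MICFs, 407 from GMTMS-iCMs and 853 from the GMTMM-labelled library, with FPKM of 5.59, 11.7 and 19.5. It was 2.09-fold (1.79 to 2.43) and 3.48-fold (3.05 to 3.98) above MICFs. The differences were 0.91 and 1.55, so that only the latter passed the limit. The former passed with a pseudocount of 0.1, at 1.01.

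Synm (ENSMUSG00000030554, chr7:67730160-67759742, minus strand) had 23 counts from MICFs, 150 from GMTMS-iCMs and 101 from the GMTMM-labelled library, with FPKM of 0.201, 2.04 and 1.09. It had the largest folds of the 10 genes, 10.1 (6.49 to 16.4) and 5.41 (3.41 to 8.92), from a low level in MICFs. Because the pseudocount of 1 shrinks such low levels, the differences were 1.42 and 0.78, and with a pseudocount of 0.1 the latter was 1.94.

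**Figure D2:**
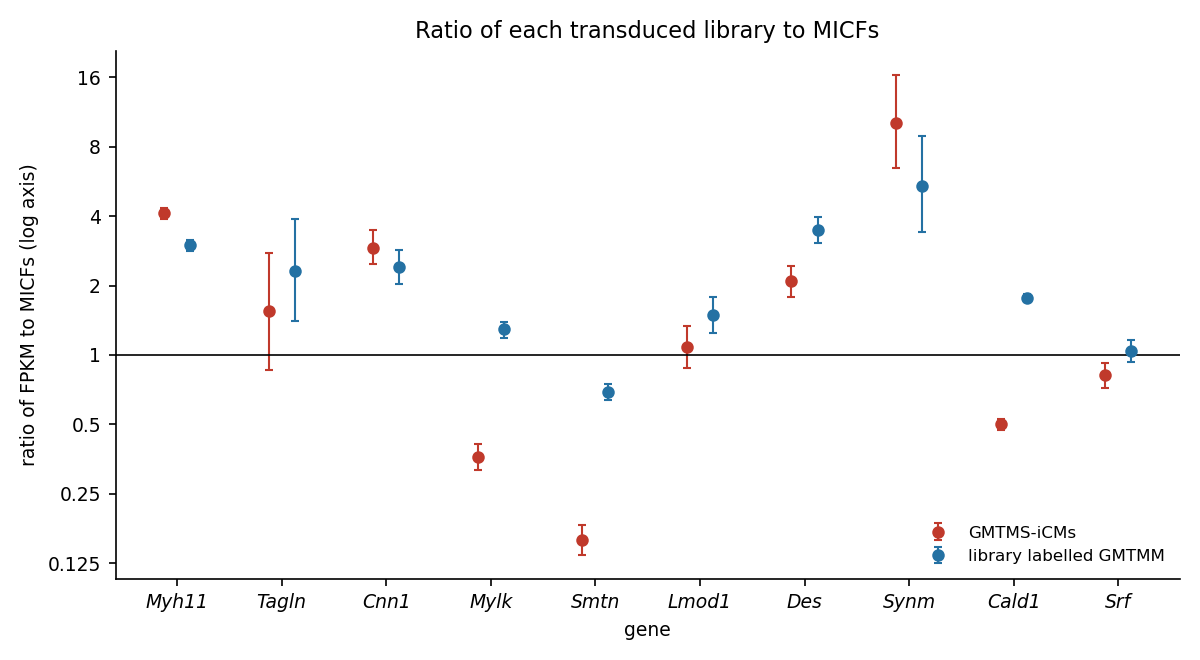
Ratio of deposited FPKM in each transduced library to that in MICFs (log axis) for the 10 genes, with 95% intervals on the counts that cover counting error only. Mylk and Cald1 lie below 1 in GMTMS-iCMs and above 1 in the GMTMM-labelled library, and Synm has the highest ratio in both.

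The transduced libraries were also set against each other. In GMTMS-iCMs none of the 10 genes was higher by over 1 than in the GMTMM-labelled library, and 3 were lower, Mylk, Smtn and Cald1. Over all genes 2.33% were higher and 2.84% lower, and over the expressed genes 9.01% and 11.1%. The differences were -1.40 for Mylk, -1.79 for Smtn and -1.69 for Cald1. Myh11 and Cnn1, in contrast, were slightly higher in GMTMS-iCMs, 1.37-fold (1.32 to 1.43) and 1.22-fold (1.06 to 1.40), and Synm 1.87-fold (1.44 to 2.43). The median over the 10 genes was -0.30, against 0.10 over the expressed genes.

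The order of the 10 genes by FPKM, a length-adjusted level, changed between the libraries. Smtn and Cald1 led in MICFs, followed by Srf and Myh11, and Tagln and Synm were lowest. In GMTMS-iCMs Myh11 led at 70.1, followed by Cnn1, Srf and Cald1 within a narrow range of 14.1 to 15.8. Myh11 and Cald1 were close in the GMTMM-labelled library, at 51.0 and 49.9. Their neighbours Smtn and Des, at 21.0 and 19.5, were close as well. The share of Smtn in the summed FPKM of the 10 genes was 25.8% in MICFs, against 3.40% in GMTMS-iCMs and 10.9% in the GMTMM-labelled library. The summed FPKM itself was 118, 142 and 193.

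Several of the proteins have close relatives that are made in non-muscle cells, and shares within a family do not depend on the scaling of a library. Myh11 made 16.7% (16.0 to 17.4) of the FPKM of Myh11, Myh9 and Myh10 in MICFs, against 62.6% (61.6 to 63.5) in GMTMS-iCMs and 36.7% (35.9 to 37.5) in the GMTMM-labelled library, Myh9 and Myh10 being the non-muscle myosin heavy chains. In GMTMS-iCMs the smooth muscle chain thus went from a minor to the main part of this family. The levels of both relatives moved too, Myh9 by -1.55 and Myh10 by -1.15. Cnn1 made 5.37% (4.69 to 6.12) of the FPKM of the 3 calponins in MICFs, against 34.4% (31.6 to 37.2) in GMTMS-iCMs and 9.03% (8.21 to 9.89) in the GMTMM-labelled library. Cnn2 and Cnn3, the calponins of non-muscle cells, had differences of -1.85 and -2.21 in GMTMS-iCMs.

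The intermediate filaments gave a like picture. Synm made 0.580% (0.368 to 0.869) of the FPKM of Synm and Nes (nestin) in MICFs, against 17.8% (15.2 to 20.6) in GMTMS-iCMs and 3.51% (2.86 to 4.25) in the GMTMM-labelled library. Des made 1.34% (1.20 to 1.50), 3.82% (3.47 to 4.20) and 2.72% (2.55 to 2.91) of the FPKM of Des and Vim (vimentin, the filament of mesenchymal cells). Vimentin remained by far the larger of the pair in each library. The share of Tagln beside Tagln2 stayed between 0.652% and 1.12%, with overlapping intervals. The cardiac chain Myh6 had 0 counts in MICFs, and its FPKM were 3.22 times those of Myh11 in GMTMS-iCMs and 1.28 times in the GMTMM-labelled library. Myh6 expression chose the cells of both libraries.

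**Figure D3:**
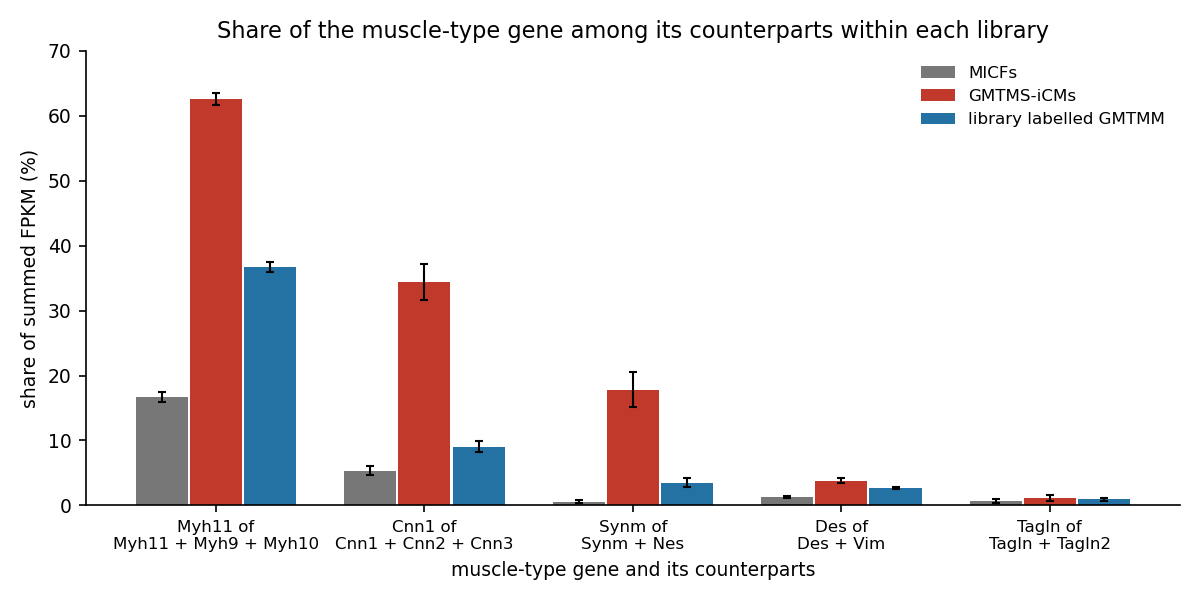
Share (percent of summed FPKM) of Myh11, Cnn1, Synm, Des and Tagln within their families of related proteins in the 3 libraries, with exact 95% intervals on the counts. The share of Myh11 is 16.7% in MICFs, against 62.6% in GMTMS-iCMs and 36.7% in the GMTMM-labelled library.

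The contractile genes were then set beside 5 lists, 77 genes in all. The lists hold other smooth muscle genes, regulators and targets of SRF, and 16 paralogs of the 10 genes. The counts in these lists, and in the marker lists further on, stand beside the shares given above. In GMTMS-iCMs against MICFs these were 3.13% higher and 2.72% lower over all genes, and 12.1% and 10.7% over the expressed ones. For the GMTMM-labelled library they were 2.12% and 1.30%, and 8.31% and 5.09%. Of 23 other cytoskeletal genes of smooth muscle, 1 was higher and 6 were lower in GMTMS-iCMs than in the MICF library, with a median difference of -0.35. The higher gene was Nexn, an actin-binding protein (1.06), and the lower ones included Actg2, the enteric smooth muscle actin (-3.04), and Itga8, an integrin chain of mesenchymal and smooth muscle cells (-2.47). Actg2 had 350 counts from MICFs, 17 from GMTMS-iCMs and 219 from the GMTMM-labelled library. Acta2, the vascular smooth muscle actin, had a difference of -0.03 in GMTMS-iCMs, but its direction changed with the scaling, to 0.72 without quantile normalization. In the GMTMM-labelled library, 3 of the 23 were higher than in MICFs (Pdlim3, Itga7 and Mustn1) and 0 lower, with a median of 0.41. Without quantile normalization 7 were higher, and the genes added were Acta2 (1.28), Myl9 (1.12), Tpm1 (1.16) and Csrp1 (1.00). Mustn1, a small nuclear protein of muscle and bone, had the largest of these differences, 1.95.

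Of 16 paralogs of the 10 genes, 2 were higher in GMTMS-iCMs than in MICFs (Smtnl2 and Lmod2) and 6 lower (Myh9, Myh10, Cnn2, Cnn3, Vim and Nes), while 0 of 16 passed the limit in the GMTMM-labelled library. With a pseudocount of 0.1, which shrinks low genes less, 4 were higher and 7 lower in GMTMS-iCMs, and 3 were higher in the GMTMM-labelled library (Mylk2, Smtnl2 and Lmod2). Lmod2, the leiomodin of cardiac muscle, had 0, 28 and 18 counts for MICFs, GMTMS-iCMs and the GMTMM-labelled library. The lower 6 are the relatives made in non-muscle or progenitor cells. Without quantile normalization 3 of them were past the limit.

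Next to the contractile genes stand the regulators and the immediate targets of SRF. Of 16 SRF cofactors and regulators, 2 were higher in GMTMS-iCMs (Myocd and Klf5) and 2 lower (Fhl1 and Fhl2, LIM proteins of muscle). Both counts are close to the shares of the expressed genes, 12.1% higher and 10.7% lower. By counts scaled to the library total 6 were lower, with Elk3, Gata6, Tead1 and Prkg1 added. In the GMTMM-labelled library 4 were higher (Myocd, Klf4, Klf5 and Gata6) and 1 lower (Mapk14). Myocd, a delivered factor of both cocktails, is among the higher genes of both libraries by design. Klf5, a zinc finger factor of proliferating smooth muscle, had 4, 104 and 110 counts, and Klf4, which opposes the contractile programme, had differences of -0.14 and 1.13. Of 10 immediate early targets of SRF, 8 were lower in GMTMS-iCMs than in the MICF library, with a median of -1.25, and 4 in the GMTMM-labelled library, with a median of -0.54 that was 0.12 without quantile normalization, and 0 were higher in either. Egr1, a growth factor response gene, had a difference of -2.15 in GMTMS-iCMs and Fos one of -1.89. These counts depend on the scaling, since without quantile normalization 3 of the 10 were lower in GMTMS-iCMs and 1 in the GMTMM-labelled library, and 1 gene, Junb, was higher in both.

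Of 12 receptors and channels of smooth muscle, 2 were lower in GMTMS-iCMs, the endothelin receptor Ednra (-1.01) and the angiotensin receptor Agtr1a (-1.17), and 0 were higher. With DESeq2 size factors 4 were higher there (Kcnma1, Cacna1c, Adra1a and Pln) beside the same 2 lower. After quantile normalization with a pseudocount of 1, these 4 differed by 0.12, 0.71, 0.56 and 0.12. Kcnma1 and Pln had 0 counts in MICFs, so that their calls rest on low levels. Atp2b4, a calcium pump, was the 1 gene higher in the GMTMM-labelled library (1.38). Counts this small in 12 genes are close to the shares of the expressed genes, 10.7% lower in GMTMS-iCMs and 8.31% higher in the GMTMM-labelled library.

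**Figure D4:**
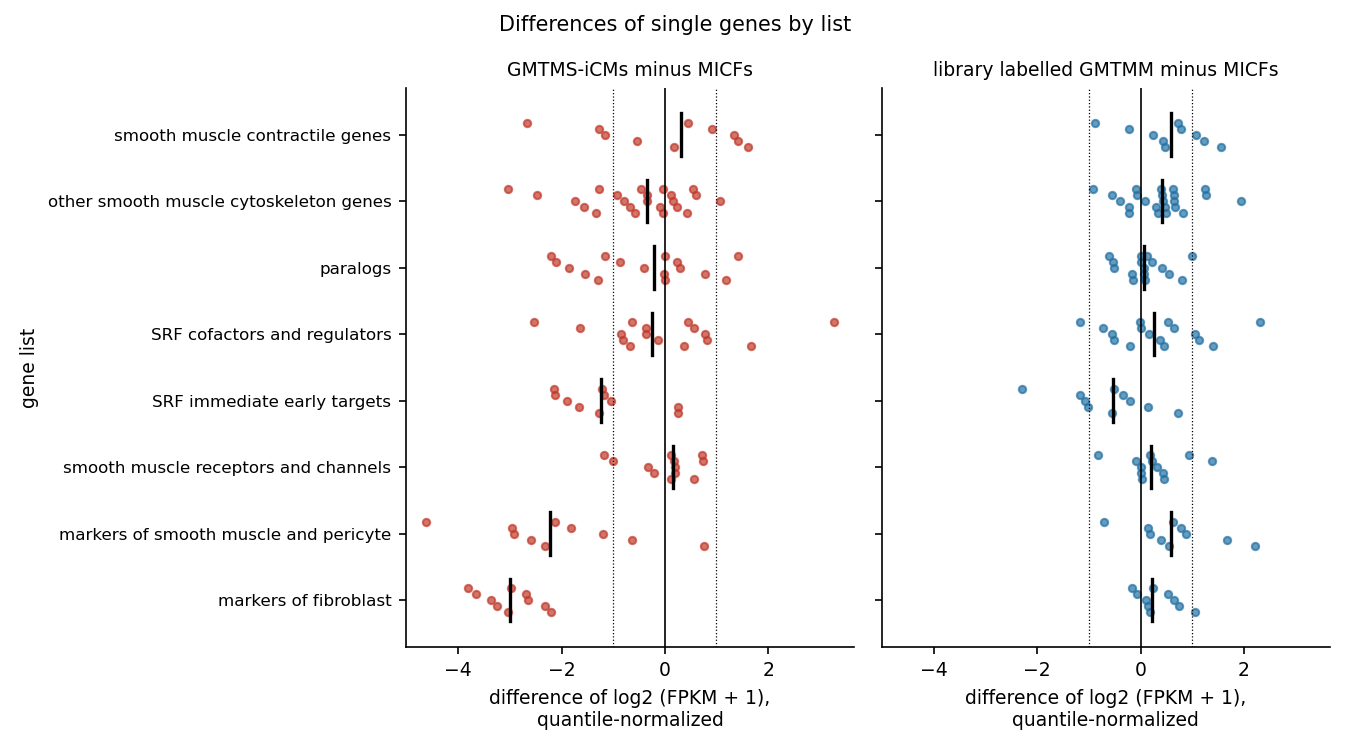
Difference of log2 (FPKM + 1) after quantile normalization from MICFs, 1 point for each gene, in the 10 contractile genes and the lists set beside them, for both transduced libraries. In GMTMS-iCMs the median is 0.31 over the contractile genes, -1.25 over the immediate early targets and -2.23 over the smooth muscle and pericyte markers.

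Markers of the cell types that the cultures could hold also differed between the libraries, and their part in the differences above was not tested. Of 10 smooth muscle and pericyte markers that are no contractile genes, 8 were lower in GMTMS-iCMs than in the MICF library, with a median of -2.23, and their summed FPKM were 275 in MICFs, against 35.5 in GMTMS-iCMs and 407 in the GMTMM-labelled library. Mcam and Notch3, surface proteins of mural cells, had differences of -4.62 and -2.92 in GMTMS-iCMs, where Myh11 and Cnn1 were higher. In the GMTMM-labelled library 2 of the 10 were higher than in MICFs, Rgs5 (1.67) and Rgs4, and none was lower, and with DESeq2 size factors 4 were higher. All 10 fibroblast markers were lower in GMTMS-iCMs, with a summed FPKM of 1522 in MICFs, against 228 in GMTMS-iCMs and 2886 in the GMTMM-labelled library. Mylk, Smtn and Cald1 had the same direction as these lists in GMTMS-iCMs, and Myh11, Cnn1 and Synm the opposite one.

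All 10 cardiomyocyte markers were higher in GMTMS-iCMs than in MICFs and 9 of 10 in the GMTMM-labelled library, with summed FPKM of 1.97, 1371 and 516 in the 3 libraries, and Myh6, Ryr2, Actn2 and Myl7 were at 0 in MICFs. The skeletal muscle regulators Myod1, Myog, Myf5 and Pax7 were at 0 in all 3 libraries. Des was the only one of the 9 skeletal muscle markers with an FPKM of at least 1 in some library. Endothelial marker genes summed to 472, 13.8 and 351 FPKM, with 8 of 8 lower in GMTMS-iCMs and 3 of 8 in the GMTMM-labelled library, where 1 of 8 (Egfl7) was lower without quantile normalization. Macrophage markers summed to 8308, 15952 and 7589 FPKM, with 2 of 8 higher in GMTMS-iCMs (Ptprc and Itgam) and 1 lower in the GMTMM-labelled library (Csf1r). These counts depend on the scaling, and without quantile normalization they were 6 and 0. By their summed FPKM the 3 libraries held abundant macrophage transcripts beside the contractile ones.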

How the data were processed

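For the 3 libraries the authors deposited raw counts per gene and FPKM. The submitters' processing notes name HISAT2 2.0.5 and the mm9 build, whereas 53548 of the 54532 genes have the coordinates of GENCODE M21 (GRCm38), the annotation used for exon overlap. The counting tool and its strand setting are not given in the sources used here. The column cMF was taken as the MICF library since the remaining columns carry the names of cocktails. The deposited FPKM were quantile-normalized over the libraries and transformed as log2 with a pseudocount of 1, and differences over 1 in a pair of libraries were called, whereas the study filtered on variation over all 3 for clustering. Other scales were deposited FPKM without quantile normalization, log2 before quantile normalization, a pseudocount of 0.1, expressed genes alone, TMM log2 CPM (edgeR, prior count of 2), DESeq2 size factors and CPM of the library total. The floor for a count of 0 was 3 counts, 0.252 to 0.282 CPM. All 10 genes were named, and from each list the genes past a difference of 1 in a comparison with MICFs with over 10 counts in the higher library. Acta2, Tagln2, Myh6, the overlapping genes and markers at 0 fall outside this rule, having been picked with their values in view. So do genes named because they passed the limit on another scale alone, such as Junb, Myl9 and Pln. One of the lists is not reported here. The genes and lists were chosen with earlier results of these data known. Steps were tested on simulated data. Counts were scaled with DESeq2 1.42.0 and edgeR 4.0.16 under R 4.3.3, and the rest was done in Python 3.11.15 with pandas 2.3.3, SciPy 1.17.1, numpy 2.4.6 and, for plots, matplotlib 3.10.9.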

Additional observations from a re-analysis of the deposited data

Results flagged for a closer look

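Mylk and Cald1 had opposite directions in the transduced libraries. The difference of Mylk from MICFs was -1.16 in GMTMS-iCMs and 0.24 in the GMTMM-labelled library, and that of Cald1 was -1.27 and 0.43. The difference between these effects was not tested, since there was 1 library per condition, and both comparisons share the MICF library.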

How the results depend on the processing

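With 1 library per condition, no replicate could be left out. No paired analysis was possible because each group had only a single library. Over the comparisons, 89 of 117 alternative values stayed close to the main one and 28 moved. These values are counts and medians, for which a reversed direction was not looked for. For differences of single members, 150 of 210 alternative values stayed within counting error, 60 moved and 0 reversed the sign of a called gene. The medians of the 10 genes stayed between the medians of the single genes' interval limits, a range that is not a counting interval of the median. It says little about stability, since in GMTMS-iCMs against MICFs the sign changed by CPM of the library total, from 0.31 to -0.11. At a difference over 2, the 10 genes gave 0 higher and 1 lower in GMTMS-iCMs against MICFs, 0 higher in the GMTMM-labelled library against MICFs and 0 lower between the transduced libraries. The 3 genes higher in the GMTMM-labelled library became 5 with a pseudocount of 0.1, with TMM and with DESeq2 size factors, where Tagln (1.17, 1.12 and 1.18) and Synm (1.94, 2.29 and 2.37) joined. The cause of these moves and of those that follow was not tested.

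The 77 genes of the 5 lists, pooled here, include the 16 paralogs and the delivered factor Myocd. Of the 77, 5 were higher in GMTMS-iCMs than in MICFs, and 9 with a pseudocount of 0.1, 12 with TMM, 13 with DESeq2 size factors and 1 at a difference over 2. The 24 lower ones, of which 6 were paralogs, were 14 without quantile normalization and 7 at a difference over 2. In the GMTMM-labelled library 8 were higher than in MICFs, and 14 without quantile normalization, 13 with a pseudocount of 0.1, 19 with TMM, 20 with DESeq2 size factors and 1 at a difference over 2. The 5 lower ones were 1 without quantile normalization, with TMM, with DESeq2 size factors and at a difference over 2, and 3 by CPM of the library total. Between the transduced libraries, 1 was higher in GMTMS-iCMs, and 4 with a pseudocount of 0.1, 6 with TMM, 6 with DESeq2 size factors and 0 at a difference over 2. The 25 lower ones, of which 6 were paralogs, were 5 at a difference over 2.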
